A study of Mus musculus with 9 samples.

Results

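The expression of 9 genes that are recurrently mutated in myeloid malignancies, in which DNMT3A mutations also occur, was examined in mouse LSK cells: Npm1, Nras, Ptpn11, Cbl, Nf1, Jak2, Srsf2, Sf3b1 and U2af1. The genes were chosen by name. Every array probe whose RefSeq accession maps to one of these symbols was taken, which gave 17 of 55681 probes, and the genes make up 9 of the 13120 genes tested. LSK cells are marrow cells without lineage markers that carry Sca-1 and Kit, and they include the blood stem cells and early progenitors. All cells were from C57BL/6 mice, had been transduced with a vector marked by GFP, had passed through transplanted mice and were then sorted. The 3 groups, of 3 arrays each, carried the empty vector alone (EV), DNMT3A wild-type (WT) or DNMT3A R882H. R882H is the substitution found most often in leukaemic DNMT3A, an enzyme that adds methyl groups to cytosine in CpG dinucleotides. The promoter that drives the vector, the age of the mice and whether the arrays of a group come from separate animals are not stated in the sources used here. All p-values therefore speak only of the scatter among these samples, and that scatter may be technical.

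The 9 genes act in 3 kinds of process. Nras, Ptpn11, Nf1, Cbl and Jak2 carry or restrain the signals of growth factor and cytokine receptors: NRAS is a small GTPase, the phosphatase SHP2 encoded by Ptpn11 promotes its activation, NF1 switches RAS off, CBL is a ubiquitin ligase that takes activated receptors out of service, and JAK2 is the kinase bound to the receptors for erythropoietin and thrombopoietin. Srsf2, U2af1 and Sf3b1 encode proteins that recognise exons, the 3′ splice site and the branch point when introns are removed, and Npm1 encodes nucleophosmin, an abundant nucleolar chaperone that leukaemic mutations move to the cytoplasm. The arrays measured RNA of the unmutated mouse genes and no mutation of them.

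The substrate of DNMT3A is the CpG dinucleotide, so the promoters of these genes are shown by their CpG content. RefSeq promoter sequences (GRCm38.p6) were at hand for 8 of the 9 genes, all but Npm1. In the 250 bases before the start site, the letters CG, which read the same on both strands, occurred 37 times for Jak2, 33 times for Cbl and Srsf2, 31 times for Ptpn11, 21 times for Nf1, 16 times for Sf3b1 and 14 times for Nras. U2af1 has 2 start sites in the table, with 31 and 33. Among 32841 promoters of this length the median was 6, and 92.1% held at least 1 CG. As many as in Jak2 or more were found in 2.2% of them, and as many as in Nras or more in 29.4%. These promoters have the highest and the lowest count of the 8 genes and are printed 5′ to 3′ with each CG in capitals. Jak2 lies on the plus strand at chr19:29251553-29251802 and Nras on the plus strand at chr3:103058035-103058284.
Jak2: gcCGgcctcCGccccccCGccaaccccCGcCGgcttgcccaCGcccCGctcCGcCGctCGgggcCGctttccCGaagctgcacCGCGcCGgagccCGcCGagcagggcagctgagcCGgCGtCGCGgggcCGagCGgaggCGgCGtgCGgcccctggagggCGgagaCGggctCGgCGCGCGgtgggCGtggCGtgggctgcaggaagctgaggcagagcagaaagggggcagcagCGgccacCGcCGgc
Nras: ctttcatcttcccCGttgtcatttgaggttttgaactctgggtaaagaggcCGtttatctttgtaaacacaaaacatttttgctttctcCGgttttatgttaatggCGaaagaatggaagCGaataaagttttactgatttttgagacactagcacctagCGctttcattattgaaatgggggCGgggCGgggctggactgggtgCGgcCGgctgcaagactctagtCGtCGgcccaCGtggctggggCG
The Jak2 promoter is dense in CG over most of its length, while in Nras they gather toward the start site. Methylation was not measured, and the counts describe the sequence only.

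On each array 53.42 to 64.801% of probes were well above background, and no spot was saturated. Of the 9 markers of LSK cells, 8 were well above background on all 9 arrays, Kit, Ly6a (the gene of Sca-1) and Cd34 among them, and Slamf1 was so on 6. Some markers of other blood cells, such as Itgam, Csf1r and Nkg7, were also well above background on all 9 arrays. The signal summed over 7 B lineage markers, as a multiple of the array's 75th percentile, was 1.71 to 2.48 with EV, 1.43 to 5.07 with WT and 3.49 to 10.2 with R882H. Of these, 3 were well above background on all 9 arrays and Ms4a1 on none. Of those 3, Vpreb1 (group means of -1.17, -0.55 and 1.87 in log2 for EV, WT and R882H) and Pax5 (-1.88, -1.68 and -1.49) were highest with R882H. Cd79b was lowest with R882H (0.18, 0.18 and 0.01). The sum of 6 T and NK markers was 45.2 to 64.1, 42.0 to 63.0 and 36.6 to 41.4 in the same order, with 2 of 6 on all 9 arrays and Cd3d and Cd8a on none. That sum was almost wholly Nkg7 (group means of 5.69, 5.57 and 5.22 in log2), and the other marker on all 9 arrays, Cd3e, ran the other way (-0.58, -0.48 and -0.31). The sum of 5 megakaryocyte markers, 4 of them on all 9 arrays, was 6.15 to 15.3, 7.18 to 9.71 and 12.5 to 29.6. The B and the T and NK sums separated R882H from EV, and the T and NK and megakaryocyte sums separated it from WT. Their part in the differences of the 9 genes was not tested. In sorted bulk cells, fewer cells of a type and less RNA per cell cannot be told apart. The mouse Dnmt3a probe read 1.03 ± 0.47 with EV, 1.22 ± 0.70 with WT and 1.40 ± 0.30 with R882H (SD, n = 3). Whether it lies in sequence shared with the introduced gene was not stated in the sources used here, so it does not check the labels. The authors' deposited table of log2 values sets a limit on all groups: just 2 of the 9 columns match the array they are named for, 7 hold another array and 4 of these an array of another group. The values below follow the labels of the scanner output, and the same differences from that table, by its column names, are given after them.

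All 17 probes of the 9 genes were well above background on all 9 arrays. Levels are given as log2 signal minus the 75th percentile of the array, so that a difference of 1 is 2-fold. They are compared between groups for the same probe, never between genes. For each gene the brightest probe is described first. Npm1 had 5 probes, Nras 3, Srsf2 and U2af1 2 each, and the other 5 genes 1 each.

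No gene of the 9 passed the threshold in any comparison, and neither did any other gene. With limma and Benjamini-Hochberg adjustment at 0.05, 0.0% of the 13120 genes were called for R882H minus EV, 0.0% for R882H minus WT and 0.0% for WT minus EV. The smallest adjusted p over all genes was 0.31, 0.0925 and 0.195 in that order. At an unadjusted p under 0.05 the shares of all genes were 9.05% for R882H minus EV (1187 genes), 8.04% for R882H minus WT (1055) and 5.95% for WT minus EV (781), and of the 9 genes 0, 1 and 0 were among them. The 1 gene was Cbl. With the array median as the scale, Cbl, Srsf2 and Npm1 had an unadjusted limma p under 0.05 for R882H minus EV (0.0143, 0.0281 and 0.0375). On that scale 1684 of the 13120 genes did. Jak2 did so with quantile normalization (0.036), beside 1080 genes, and with cyclic loess (0.046), beside 1077 genes. It also did with array weights (0.0454), slide as a random block (0.0497) and without EV replicate 2 (0.0218), where 1954, 1704 and 1423 genes did. Npm1 did so with array weights (0.0423) and without R882H replicate 3 (0.0388), the latter beside 1377 genes. Without WT replicate 3, Nf1 did so for R882H minus WT (0.0412, beside 1269 genes) and WT minus EV (0.0346, beside 1282). None of these p-values passed adjustment. The count of 1187 was 665 without R882H replicate 2, 702 without R882H replicate 1, 1954 with array weights and 614 in the authors' deposited table. The comparisons share their arrays in pairs, so they are not independent of each other.

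The nucleolar gene Npm1 (probe A_51_P467410, NM_008722) stood highest with EV, at 7.28, 7.22 and 7.37, then with WT at 7.08, 7.04 and 7.24, and lowest with R882H at 6.77, 7.0 and 7.21. The R882H arrays were all below the EV arrays, but by only 0.0048 between the nearest of them, and they overlapped with WT. R882H replicate 1 was the lowest array of all. The difference R882H minus EV was -0.30 ± 0.16 (SE; 95% interval -0.66 to 0.06; limma adjusted p = 0.576), that of R882H minus WT -0.13 ± 0.16 (adjusted p = 0.838) and that of WT minus EV -0.17 ± 0.16. Without R882H replicate 1 the first was -0.18 and the second -0.02. The interval of R882H minus EV leaves room for a fall to 0.635-fold of the EV level and for a rise to 1.045-fold. The other 4 Npm1 probes differed between R882H and EV by -0.14, -0.18, -0.16 and -0.21, all in the same direction, with SE of 0.15 to 0.24. For R882H minus WT the signs of the 5 probes were split, 3 lower and 2 higher.

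**Figure D1:**
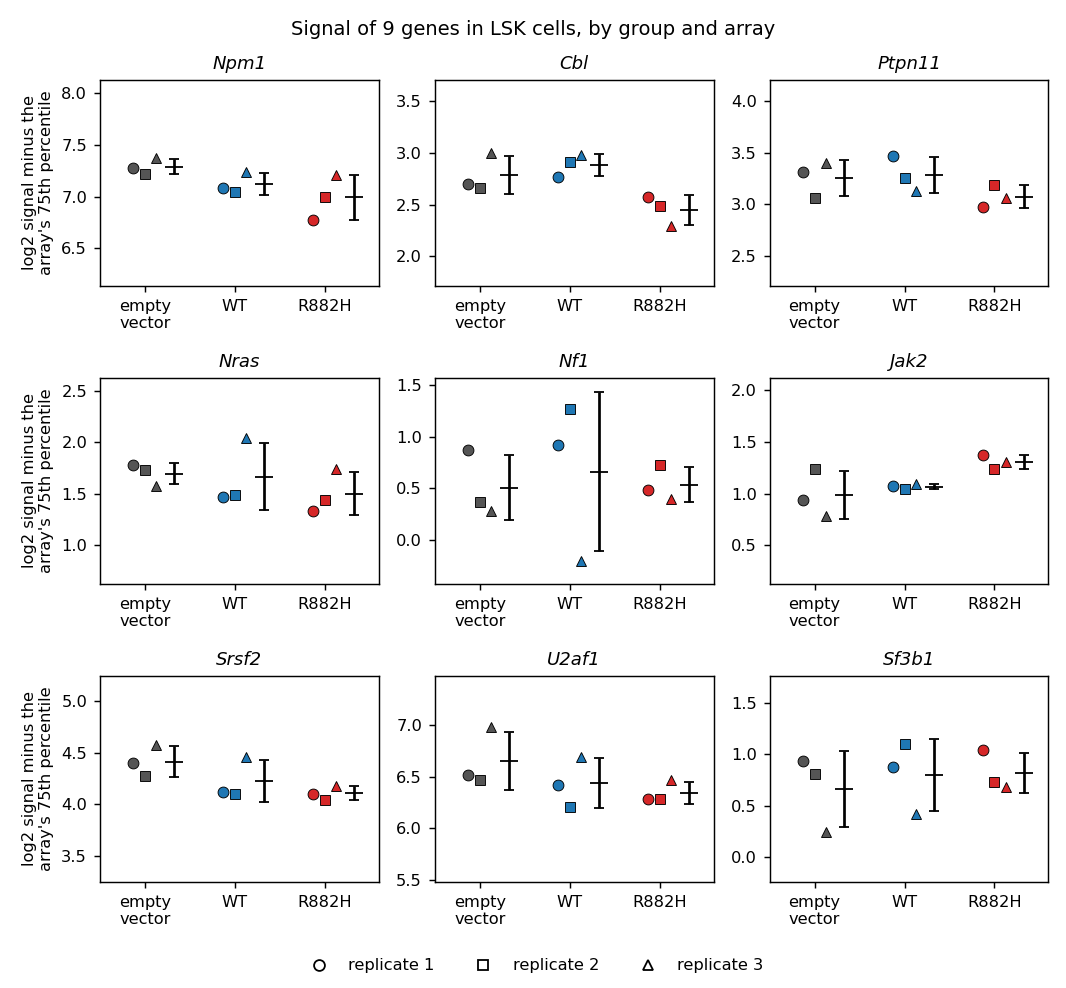
Log2 signal minus the array's 75th percentile (vertical axis) of the 9 genes in LSK cells with empty vector, DNMT3A WT or DNMT3A R882H, 1 symbol per array with its shape giving the replicate number, and bars for the mean ± SD (n = 3). Each panel spans the same 2 log2 units around the gene's own mean: the R882H arrays of Cbl lie below all others and those of Nf1 within the spread of WT.

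Among the genes of receptor signalling, Cbl showed the clearest separation. Its single probe (A_52_P819011, NM_007619) read 2.70, 2.66 and 3.00 with EV, 2.77, 2.91 and 2.98 with WT and 2.57, 2.49 and 2.29 with R882H. All 3 R882H arrays lay below all 6 others, with a gap of 0.08 to EV and 0.19 to WT, while EV and WT overlapped. R882H minus WT was -0.43 ± 0.16 (95% interval -0.79 to -0.07), or 0.74-fold, with an unadjusted p of 0.0235 that did not pass adjustment over all genes (limma adjusted p = 0.551, between 0.421 and 1.0 over the alternative settings). This unadjusted p was above 0.05 without WT replicate 2 (0.0512), WT replicate 3 (0.063) or R882H replicate 3 (0.0797), with slide as a block (0.074) and within the slide that held 2 WT and 2 R882H arrays (0.0918). R882H replicate 3, the lowest array for Cbl, lay alone on its slide. Both slide fits thus take their difference from the same 2 WT and 2 R882H arrays. R882H minus EV was -0.34 ± 0.16 (-0.70 to 0.03; limma adjusted p = 0.558), and WT minus EV was 0.10 ± 0.16. In both slide fits R882H minus WT was -0.41. With replicate 3 of all groups left out, which was added after the data had been seen, R882H minus EV was -0.15 and R882H minus WT -0.31 (unadjusted p = 0.123).

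Jak2, the receptor-bound kinase, lay on the other side. Its probe (A_55_P1971458, NM_008413) read 0.94, 1.24 and 0.78 with EV, 1.07, 1.04 and 1.09 with WT and 1.37, 1.24 and 1.31 with R882H. The R882H arrays were above all WT arrays with a gap of 0.15, and above all EV arrays by no more than 0.00093, since EV replicate 2 was as high as R882H replicate 2 to the second decimal. R882H minus EV was 0.32 ± 0.15 (-0.03 to 0.67; limma adjusted p = 0.56) and R882H minus WT 0.24 ± 0.15 (-0.11 to 0.59; limma adjusted p = 0.701). EV and WT overlapped, at a difference of 0.08 that became -0.02 without EV replicate 3. With the array median subtracted in place of the 75th percentile, R882H minus EV was 0.16, and the median over all genes of this comparison moved from -0.02 to -0.18 with that scaling.

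Ptpn11, which encodes the phosphatase SHP2, was measured at 3.31, 3.06 and 3.40 with EV, 3.47, 3.25 and 3.13 with WT and 2.97, 3.19 and 3.06 with R882H. The 3 groups overlapped, and R882H minus EV was -0.18 ± 0.16 (-0.54 to 0.18; limma adjusted p = 0.7). With slide as a block, in which EV and R882H are joined through WT arrays only, it was 0.10. The brightest Nras probe (A_52_P649296, NM_010937) read 1.78, 1.73 and 1.58 with EV, 1.47, 1.49 and 2.04 with WT and 1.33, 1.44 and 1.74 with R882H. WT replicate 3 was the highest array and R882H replicate 1 the lowest, and the groups overlapped. R882H minus EV was -0.19 ± 0.20 (-0.64 to 0.26; limma adjusted p = 0.735), and the other 2 Nras probes stood at -0.15 and -0.01. Nras has a pseudogene named after it in the gene table, and whether the probes also bind its transcript was not stated in the sources used here.

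Nf1, the GTPase-activating protein that turns RAS off, varied most among the WT arrays, with an SD of 0.77. It read 0.87, 0.37 and 0.28 with EV, 0.92, 1.27 and -0.20 with WT and 0.48, 0.73 and 0.40 with R882H. The WT arrays thus held both the highest and the lowest value, and EV and R882H lay between them. R882H minus EV was 0.03 ± 0.35, with an interval of -0.77 to 0.83, the widest of the 9 genes. R882H minus WT was -0.13 ± 0.35 and became 0.17 without WT replicate 2 and -0.56 without WT replicate 3. WT minus EV was 0.16 ± 0.35 and became -0.15 without the first of these and 0.59 without the second.

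Of the splicing genes, Srsf2, an SR protein that binds exonic enhancers, read 4.4, 4.27 and 4.57 with EV, 4.12, 4.10 and 4.46 with WT and 4.10, 4.04 and 4.18 with R882H. The R882H arrays were below all EV arrays with a gap of 0.09 and overlapped with WT. R882H minus EV was -0.31 ± 0.16 (-0.67 to 0.05; limma adjusted p = 0.574), R882H minus WT -0.12 ± 0.16 and WT minus EV -0.18 ± 0.16. The second Srsf2 probe (A_55_P2030486, of the same accession) differed by -0.12 ± 0.23 between R882H and EV, with overlapping groups.

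U2af1 encodes the small subunit of the factor that binds the AG at the 3′ splice site. Its brighter probe (A_55_P2059025, NM_001163769) read 6.52, 6.47 and 6.98 with EV, 6.42, 6.21 and 6.69 with WT and 6.28, 6.28 and 6.47 with R882H. R882H lay below EV by as little as 0.00043 between the nearest arrays, and R882H minus EV was -0.31 ± 0.19 (-0.75 to 0.12; limma adjusted p = 0.602). Without EV replicate 3 it was -0.15. The second probe, annotated to another U2af1 transcript (A_51_P364786, NM_024187), read 1.22, 1.1 and 1.45 with EV, 0.90, 0.93 and 1.1 with WT and 0.88, 0.49 and 1.30 with R882H. On this probe WT was the group that did not overlap with EV, at -0.28 ± 0.22, while R882H spanned both, at -0.37 ± 0.22 from EV. The difference between the 2 probes was 5.40 with EV, 5.47 with WT and 5.45 with R882H (SD 0.12, 0.16 and 0.31, n = 3). It moved by less between groups than within R882H.

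Sf3b1, the largest subunit of the complex that holds the branch point, read 0.94, 0.81 and 0.25 with EV, 0.88, 1.1 and 0.42 with WT and 1.04, 0.73 and 0.68 with R882H. The groups overlapped, and R882H minus EV was 0.15 ± 0.24 (-0.41 to 0.70; limma adjusted p = 0.835) and R882H minus WT 0.02 ± 0.24. The first became -0.06 without EV replicate 3 and the second -0.18 without WT replicate 3. WT minus EV was 0.13 ± 0.24.

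Read together on the brightest probes, the groups stood in the order EV, WT, R882H from high to low for Npm1, Srsf2 and U2af1. Nras followed the same order with WT 0.03 below EV. WT was lowest on Npm1 probes A_66_P129873 (5.58, 5.21 and 5.37 for EV, WT and R882H) and A_55_P2117243 (3.89, 3.7 and 3.73). It was also lowest on the other Nras probes, at 1.54, 1.37 and 1.39 and at -0.61, -0.65 and -0.62. The remaining probes of Npm1, Srsf2 and U2af1 kept the order. Cbl and Ptpn11 were highest with WT and lowest with R882H, Jak2 and Sf3b1 highest with R882H and lowest with EV, and Nf1 highest with WT. On the brightest probes the WT arrays overlapped with EV for all 9 genes, and with R882H for all but Cbl and Jak2. Over the 9 genes, 6 were lower and 3 higher with R882H than with EV (8 and 1 with the array median), at a median of -0.19 (-0.13 after cyclic loess), where the median of all genes was -0.02 and 52.2% were lower. Against WT, 7 were lower and 2 higher (8 and 1 with the array median), at a median of -0.13 beside -0.01 and 51.8% for all genes. WT minus EV had 5 higher and 4 lower (4 and 5 with the array median), at a median of 0.03 (-0.04 with the array median) beside 0.01 and 48.4% lower. With the array median as the scale, the median of all genes was -0.181 for R882H minus EV, -0.11 for R882H minus WT and -0.057 for WT minus EV. The median SE was 0.16 for the 9 genes and 0.232 for all genes.

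**Figure D2:**
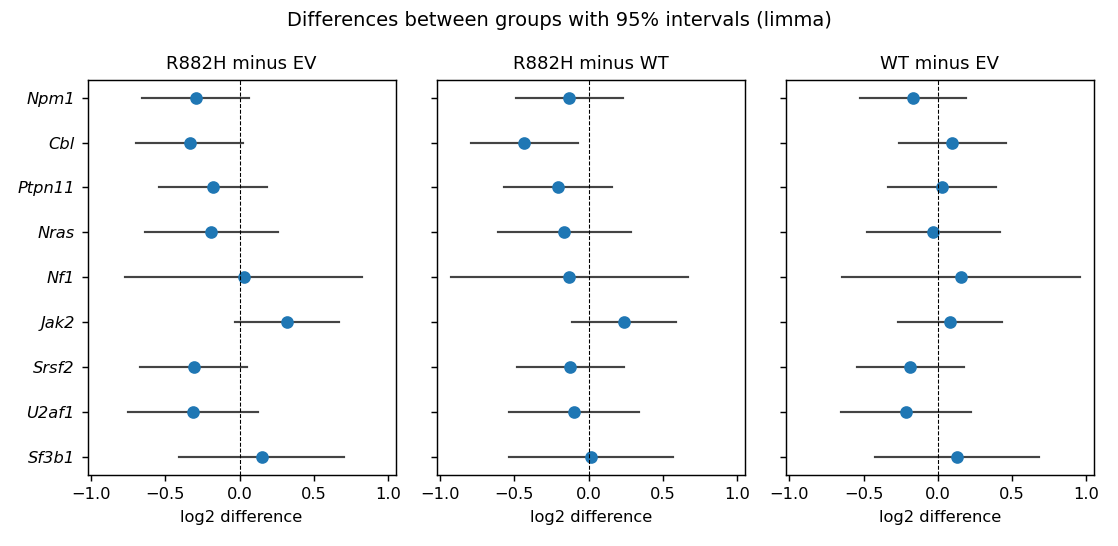
Log2 differences between groups (horizontal axis) with 95% intervals from limma for the 9 genes, in 3 panels for R882H minus EV, R882H minus WT and WT minus EV. Every interval includes 0 except that of Cbl in R882H minus WT, from -0.79 to -0.07.

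Separation of the arrays was counted beside these medians. Between R882H and EV, 4 of the 9 genes (Npm1, Cbl, Srsf2 and U2af1) had all R882H arrays below all EV arrays, where 8.96% of all genes did. No slide held both EV and R882H arrays, so slide and group cannot be told apart by this separation. Just 1 WT array lay on the slide of the EV arrays, and R882H replicate 3 lay alone on its slide. With slide as a block, EV and R882H are joined through WT. R882H minus EV was then -0.46 for Npm1, -0.43 for Cbl, -0.50 for Srsf2, -0.40 for U2af1, 0.32 for Jak2 and -0.60 for Nras, with SE of 0.29 to 0.40. In the other direction 1 gene (Jak2) did, where 9.42% of all genes did. Against WT, Cbl was separated below (8.7% of all genes) and Jak2 above (6.75%). None of the 9 was separated between WT and EV, where 5.66% of all genes were above and 4.41% below. These counts moved with the scaling and background. With normexp background correction Srsf2 alone of the 9 was separated between R882H and EV, where 9.63% of all genes were below and 7.93% above. With the array median 5 were below, Ptpn11 in addition, and none above, beside 18.9% of all genes below and 4.04% above. Against WT the array median added Ptpn11 below and lost Jak2, beside 12.1% of all genes below and 3.73% above. Quantile normalization added U2af1 below, where 7.83% of all genes were. With the array median Npm1 was separated below between WT and EV, as were 6.17% of all genes. Of the 4 gaps below EV, those of Npm1 and U2af1 were under 0.01.

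The sign of the differences also went with brightness across the whole array. When the 13120 genes were put into 5 equal bins by mean signal, the median of R882H minus EV ran from 0.20 in the dimmest bin to -0.12 in the brightest, in which 68.3% of genes were lower. Npm1, Ptpn11, Cbl, Srsf2 and U2af1 lay in the brightest bin, Nras and Jak2 in the next, and Nf1 and Sf3b1 in the middle one. All 5 genes of the brightest bin were on the lower side. After cyclic loess, a normalization that follows intensity, R882H minus EV was -0.18 for Npm1, -0.21 for Srsf2, -0.20 for U2af1, -0.25 for Cbl and -0.09 for Ptpn11, the 5 genes of the brightest bin, and 0.36 for Jak2. Under cyclic loess Npm1, Srsf2, U2af1 and Cbl were separated below EV, where 8.41% of all genes were. Jak2 was separated above EV, where 8.33% of all genes were.

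Replicate number also went with the level of some of the 9 genes. U2af1, Srsf2 and Npm1 were highest in replicate 3 of every group, with deviations from the group mean of 0.32, 0.24 and 0.13 for U2af1 in EV, WT and R882H. Sf3b1 and Nf1 were lowest in replicate 3 of every group, at -0.42, -0.38 and -0.14 for Sf3b1. For Nras, Cbl, Ptpn11 and Jak2, replicate 3 did not lie at the same end of all 3 groups. Over the 9 arrays, which share these groups and numbers, Pearson's r was 0.93 between Srsf2 and U2af1 and 0.79 between Npm1 and U2af1, while it was -0.87 between Sf3b1 and U2af1. These are descriptions of 9 arrays. Whether the number marks an animal, a day or a position was not stated in the sources used here.

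In the authors' deposited table, with its columns taken by name, the difference between R882H and EV was closer to 0 for 7 of the 9 genes. It was -0.05 for Npm1, -0.13 for Cbl, 0.12 for Jak2, -0.05 for Srsf2 and -0.001 for U2af1, while for Nf1 and Sf3b1 it was further from 0 and negative, at -0.42 and -0.28. For R882H minus WT the table gave -0.24 for Cbl and 0.15 for Jak2, in the same direction as above. In that comparison Npm1 (0.094), Nras (0.271) and Sf3b1 (-0.187) had the opposite sign to above. The table holds the same arrays, some under the name of another group, so a shared direction is no separate check. Limma called none of the 9 genes in it. The table differs from the scanner values in which array a column holds. Each column followed its closest array, with the scanner values centred on each probe, at a Pearson's r of 0.9985 to 1.0. The median absolute difference in log2 was 0.0017 to 0.00941 over the columns. The parts of column order and of processing in the differences of the 9 genes were not tested.

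**Figure D3:**
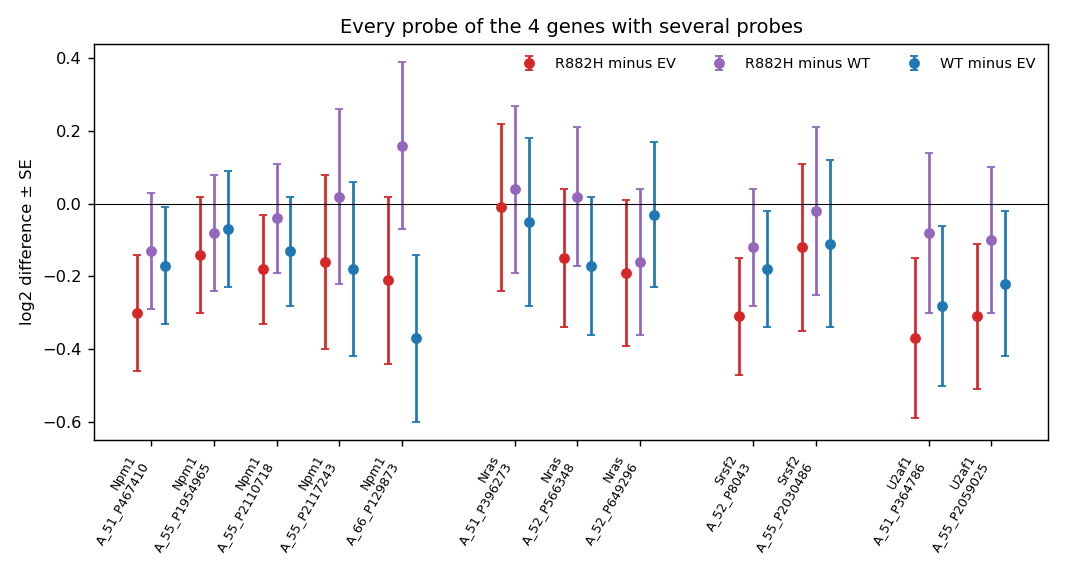
Log2 differences ± SE from limma (vertical axis) for each probe of the 4 genes with several probes, with 1 colour per comparison. Of all 17 probes, 14 were lower with R882H than with EV, among them all 12 shown; for R882H minus WT the signs within Npm1 and Nras were mixed.

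The genes around these 9 were described with 5 lists of pathway partners. For all 5, no gene was called in any comparison by limma. Any of the 9 genes that a list holds were left in its counts. Of all genes, 52.2% were lower for R882H minus EV, 51.8% for R882H minus WT and 48.4% for WT minus EV. In the brightest bin 68.3% were lower for R882H minus EV. Of 45 measured spliceosome and SR protein genes, the list nearest to Srsf2, U2af1 and Sf3b1, 35 were lower and 10 higher in R882H minus EV, at a median of -0.17. It stood at -0.10 for R882H minus WT (31 lower) and -0.08 for WT minus EV (32 lower). Of 23 genes of the nucleophosmin family and its nucleolar partners, 20 were lower with R882H than with EV, at a median of -0.17. Among the 20 is Cdkn2a, which was not well above background with EV or R882H. Against WT 17 of the 23 were lower with R882H, at -0.22. For WT minus EV the nucleolar median was 0.01. The 39 RAS-MAPK genes had medians of -0.03, -0.09 and 0.05 for R882H minus EV, R882H minus WT and WT minus EV, with 23, 23 and 17 genes lower. The 36 JAK-STAT genes had medians of 0.03, -0.01 and 0.08, and 33 other genes mutated in acute myeloid leukaemia had -0.04, 0.02 and -0.02. After cyclic loess the splicing and nucleolar medians of R882H minus EV were both -0.07. The splicing median stayed negative in every comparison under each scaling tried. The JAK-STAT median of R882H minus EV was -0.13 with the array median, and the RAS-MAPK median of WT minus EV was -0.01. The median of the other leukaemia genes took both signs over the scalings in each comparison, at -0.21 with the array median and 0.02 after cyclic loess for R882H minus EV.

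**Figure D4:**
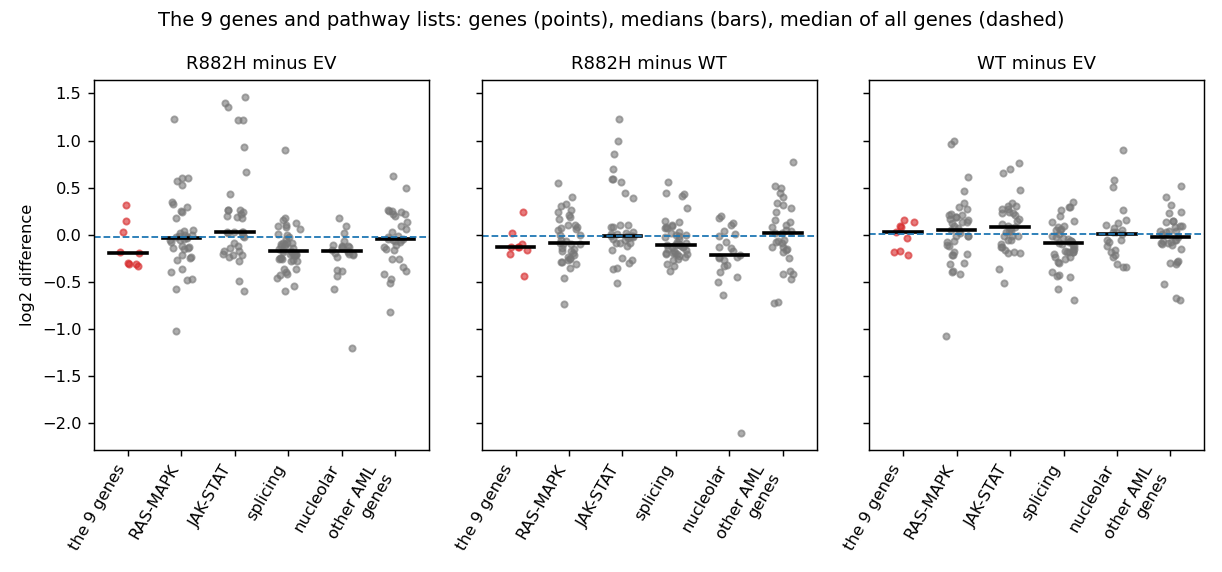
Log2 differences (vertical axis) for R882H minus EV, R882H minus WT and WT minus EV, with 1 point per gene for the 9 genes and for 5 pathway lists, a bar at each list's median and a dashed line at the median of all genes. The splicing list lies at -0.17 and the JAK-STAT list at 0.03 in R882H minus EV (-0.13 when the array median is the scale).

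Within the lists, the 2 genes with the smallest p per comparison are named, none of which passed. Since they were picked by p, a lack of overlap between their groups is no separate evidence. Of all genes, 4.41 to 9.42% did not overlap in a given direction and comparison. In the RAS-MAPK list, Lztr1, an adaptor for the degradation of RAS proteins, read 2.29, 2.31 and 2.07 with WT and 1.75, 1.83 and 1.72 with R882H, a difference of -0.46 ± 0.15 without overlap. Rasgrp4, an exchange factor for RAS, was at -0.73 ± 0.33 for R882H minus WT and 0.99 ± 0.33 for WT minus EV, and 1 of its 2 probes had the opposite sign in the latter. Hras and the RAS inhibitor Spred2 stood at -0.48 ± 0.20 and -0.46 ± 0.23 for R882H minus EV, with overlapping arrays. Mras stood at 0.61 ± 0.32 for WT minus EV.

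In the JAK-STAT list, Cish, a feedback inhibitor induced by STAT5, read -0.10, 0.55 and 0.41 with EV and 0.96, 1.11 and 1.60 with R882H. The difference was 0.93 ± 0.33 without overlap (limma adjusted p = 0.523). Ptpn1, the phosphatase PTP1B that acts on JAK2, was lower than with EV in both other groups, at -0.60 ± 0.17 for R882H (limma adjusted p = 0.479) and -0.51 ± 0.17 for WT. Of its 2 probes, 1 had the opposite sign. Epor, the erythropoietin receptor, stood at 1.23 ± 0.45 for R882H minus WT without overlap, but EV replicate 1 at 0.19 was above 2 of the 3 R882H arrays. Socs5, well above background on 2 of 3 arrays with EV and with WT, stood at 0.86 ± 0.38 in that comparison, and Stat5a at 0.28 ± 0.15 for WT minus EV.

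Among the splicing genes, Zrsr2, a relative of U2af1 that serves the minor spliceosome, read -0.41, -0.07 and -0.13 with EV, -0.66, -1.03 and -1.0 with WT and -0.63, -0.33 and -0.40 with R882H. WT was below both other groups without overlap, at -0.69 ± 0.17 from EV (limma adjusted p = 0.74), and R882H was 0.44 ± 0.17 above WT. Both of its probes had the same sign. Within the slide that held all EV arrays and 1 WT array, WT minus EV was -0.46. Prpf40b stood at 0.90 ± 0.29 and Sf3b4, a partner of Sf3b1 in the same complex, at -0.36 ± 0.15 for R882H minus EV. Clk3, a kinase of SR proteins, was at 0.43 ± 0.17 for R882H minus WT, and the SR protein gene Srsf5 at -0.57 ± 0.19 for WT minus EV, each without overlap.

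Of the nucleolar list, Cdkn2a, whose product ARF binds nucleophosmin, was well above background on all 3 WT arrays and on none of the EV or R882H arrays. It thus entered the test only through WT, and that filter favoured a higher level with WT. Against the floor described under processing, the WT mean was 2.55-fold above R882H. No fold is given between R882H and EV. Nolc1, a nucleolar chaperone, read 4.4, 4.15 and 4.86 with EV, 5.03, 4.93 and 4.98 with WT and 4.35, 4.27 and 4.43 with R882H. R882H minus WT was -0.63 ± 0.19 and WT minus EV 0.51 ± 0.19, with 1 of 2 probes of opposite sign in the latter. Ncl (nucleolin) stood at -0.43 ± 0.19 for R882H minus EV, again with 1 of 2 probes opposed. Xpo1, the exporter that carries mutant nucleophosmin out of the nucleus, stood at 0.59 ± 0.18 for WT minus EV.

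Of the other leukaemia genes, Gata2, a transcription factor of stem cells, read 3.96, 3.64 and 3.07 with EV, 3.57, 3.58 and 3.08 with WT and 4.24, 4.13 and 4.18 with R882H. All R882H arrays were above the other 6, at 0.63 ± 0.24 from EV and 0.77 ± 0.24 from WT (limma adjusted p = 0.523 and 0.551). Zrsr2, described above, is also in this list. Idh2, which makes the cofactor of TET enzymes, stood at -0.38 ± 0.15 for R882H minus WT. Bcor stood at 0.49 ± 0.20 for R882H minus EV with 1 of 2 probes opposed, and Ezh2, the methyltransferase of histone H3 lysine 27, at 0.52 ± 0.21 for WT minus EV.

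Over the 9 arrays, the genes whose levels ran most like those of the 9, among 11662 genes well above background on every array, are given as a description. They were Eif2a (Pearson's r = 0.981) and Gfus (0.969) for Npm1, Sec11a (0.988) and Napsa (0.974) for U2af1, and Pglyrp1 (0.977) and Tmem167 (0.976) for Srsf2. For Sf3b1 they were Irf2 (0.957) and Camk1d (0.948). For the signalling genes they were Hacd1 (0.94) and Nup210 (0.932) for Cbl, Ube2h (0.967) and Nyap1 (0.954) for Jak2, Ift22 (0.964) and Zbtb11os1 (0.944) for Nras, Wdr5 (0.928) and Zbtb40 (0.916) for Ptpn11, and Mrtfa (0.932) and Ccdc28a (0.912) for Nf1. They are the highest of 11662 values each, and the 9 arrays share groups and replicate numbers.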

How the data were processed

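RNA of 9 LSK samples was measured on 1-colour Agilent arrays from amplified cDNA. The scanner output the authors deposited holds, per the file headers, the processed intensity of each spot (Feature Extraction 10.10.1.1, design 028005, probe build mm9), background-subtracted and detrended, with median pixel intensities and flags. The authors' deposited table holds log2 values of 41854 probes, centred on each probe; how it was made was not stated in the sources used here.

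Processed intensities were taken to log2 minus the array's 75th percentile; 154 to 184 outlier spots per array were left out and spots of a probe averaged. Symbols came from RefSeq accessions (27235 probes with 1 symbol, 28446 with none). Probes that passed the background flag on every array of at least 1 group were kept, and the brightest stood for its gene. Groups were compared with limma 3.58.1 (R 4.3.3, lmFit and eBayes on all 9 arrays) with Benjamini-Hochberg adjustment over all 13120 genes, threshold 0.05, and checked on simulated data. Where a whole group missed that flag, the fold was taken from the brighter mean against a floor. On each dim array the floor was the larger of the probe's own value and the lowest flagged signal. Unflagged probes can lie above that signal, so it is no strict detection limit. The 9 genes, the lists and the tests were chosen with earlier results of these data known. Named genes were the 9, the 2 of smallest p per list and comparison, and the 2 most correlated with each of the 9.

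Same-numbered deviations from the group means correlated at 0.116, 0.222 and 0.325 between WT and EV, so replicate numbers may pair those arrays, a reading of the data that the labels do not state; the values given come from the fit without that pairing, and the block was an alternative; between R882H and EV they were 0.088, 0.198 and 0.279, and between R882H and WT 0.071, 0.137 and 0.239. Other settings were quantile, cyclic loess and array median scaling, normexp with an offset of 50 (on median pixel intensities, as the mean column was not used here), other filters, probe means, replicate, slide and array weight fits, the 2 groups alone, the deposited table, and leaving out each array. The number of arrays limits the precision.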

Additional observations from a re-analysis of the deposited data

How the results depend on the processing

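No gene and none of the 9 was called by limma under any alternative. The smallest adjusted p of the 9 was 0.325 for R882H minus EV, 0.421 for R882H minus WT and 0.48 for WT minus EV. Of the values of the 9 genes with 1 array left out, 77, 76 and 72 of 81 kept their direction in these comparisons, and of those under the other settings 117 of 126, 128 of 135 and 126 of 135. The cause of the turns below was not tested.

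With the array median as the scale, R882H minus EV was -0.137 for Nf1 and -0.015 for Sf3b1 with a median of the 9 genes of -0.355, R882H minus WT was -0.079 for Sf3b1 with a median of -0.225, and WT minus EV was -0.039 for Ptpn11. With slide as a block, R882H minus EV was 0.103 for Ptpn11 with a median of -0.402, R882H minus WT was 0.067 for Nf1 (0.067 within the slide of both groups), and WT minus EV was -0.019 for Cbl (-0.019 within a slide). Nf1 stood at -0.006 for R882H minus EV with slide as a random block and at -0.025 with array weights. With replicate 3 of all groups left out, added after the data had been seen, Nf1 was -0.02 for R882H minus EV, Sf3b1 -0.107 for R882H minus WT and Jak2 -0.034 for WT minus EV.

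In the authors' deposited table, R882H minus EV was 0.072 for Nras, -0.421 for Nf1 and -0.276 for Sf3b1 (median -0.048). R882H minus WT was 0.094 for Npm1, 0.271 for Nras, -0.187 for Sf3b1, 0.065 for Rasgrp4 and -0.039 for Clk3 (median -0.031). WT minus EV was -0.08 for Ptpn11, -0.051 for Nf1, -0.025 for Jak2, -0.089 for Sf3b1, 0.013 for U2af1, -0.298 for Rasgrp4, -0.305 for Mras, -0.05 for Stat5a and -0.126 for Ezh2 (median -0.051).

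With 1 array left out, R882H minus EV ranged from -0.087 to 0.208 for Nf1 and -0.06 to 0.283 for Sf3b1, with the median of the 9 from -0.275 (without EV replicate 2) to -0.127. R882H minus WT ranged from -0.283 to 0.021 for Nras, -0.563 to 0.174 for Nf1, -0.176 to 0.166 for Sf3b1 and -0.212 to 0.024 for U2af1. WT minus EV ranged from -0.213 to 0.069 for Nras, -0.067 to 0.105 for Ptpn11, -0.147 to 0.59 for Nf1, -0.023 to 0.206 for Jak2 and -0.077 to 0.324 for Sf3b1, with the median from -0.055 (without EV replicate 3) to 0.054.

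The replicate block, which takes the numbers as paired, changed no call. Genes at an unadjusted p under 0.05 numbered 1786 for R882H minus EV, 1487 for R882H minus WT and 1071 for WT minus EV under it. Without it they were 1187, 1055 and 781. With slide as a block the first was 763, in the deposited table the second was 321, and without WT replicate 3 the third was 1282.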
